A study of Rattus norvegicus with 12 samples.

Results

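The genes described here are 38 genes that proliferating cells use to enter the cell cycle, copy their DNA and divide, measured in the livers of rats given A-998679, an activator of the aryl hydrocarbon receptor (AhR). They were chosen by name: a probe set of the array counted as a member where the platform annotation gave it 1 gene symbol alone and that symbol was on the list. This found 36 of the 38 genes, with 48 of the 29176 probe sets, and 13643 genes in all have a probe set of their own. Of the 36, 28 have 1 probe set and 8 have several. Rrm2 (a subunit of ribonucleotide reductase) is covered only by probe sets shared with another gene, and Cdc6 (which loads the replicative helicase) has none in the annotation used, so neither is given a value.

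Male Sprague Dawley rats were dosed by mouth for 5 days with vehicle (0.2% HPMC, a cellulose suspension) or with A-998679 at a low (30), middle (100) or high (200) daily dose in mg/kg, with 3 rats in each of the 4 groups. All 12 rats were fasted overnight after the last dose, which the controls share with the dosed animals. The top dose is 200 mg/kg in the sample titles and in the study's methods, and 300 mg/kg in 1 label field, and it is called 200 mg/kg or the high dose here. Total liver RNA was hybridized to 1 Affymetrix RAE230 2.0 array per rat, so a rat is a replicate.

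In an adult liver most hepatocytes rest outside the cell cycle, and they re-enter it after loss of tissue or in response to mitogens. D-type cyclins with Cdk4 open the way through G1, E-type cyclins with Cdk2 start DNA replication, and cyclins A and B with Cdk1 carry the cell through G2 into mitosis. The transcripts of replication and mitosis genes are made in waves during the cycle, so that they are scarce in resting tissue. AhR is a transcription factor that binds the core sequence GCGTG with its partner Arnt and is best known for inducing Cyp1a1.

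Values are intensities on a log2 scale, so that a difference of 1 is 2-fold. Signals of different probe sets are not measures of relative RNA amount. The level of a probe set therefore serves to mark dim signals and to choose 1 probe set per gene. Comparisons are between rats within a probe set, except for the summed intensities of cell type markers, in which brighter probe sets weigh more. Some values are empty, and no source used here says why. A floor, the 25th percentile of all values, lies at 3.84 (14.3 intensity units) and serves as a mark for dim signals. Array medians lay between 5.21 and 5.26, and arrays correlated at 0.883 to 0.913 within groups and at 0.881 to 0.914 between groups. The number of arrays limits the precision of every value below.

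No cell cycle gene that could be tested changed past the threshold at any dose. Of the 36 genes, 4 (Aurka, Ncaph, E2f1 and Bub1b) could not be tested against vehicle. The limma test, adjusted by Benjamini-Hochberg over all probe sets tested and held to 0.05, called 0 of the 42 member probe sets tested at 30 mg/kg against vehicle, and likewise 0 of 44 for the middle and 0 of 43 for the high dose. Over the whole array the same test called 0.00739% of probe sets for the low dose, 0.0221% for the middle and 0.211% (57 of 26999) for the high one. The lowest adjusted p among the member probe sets was 0.92, 0.61 and 0.22 for the low, middle and high dose. The mean of the 3 doses against vehicle called 0 of 41 member probe sets (background 0.061%) and the slope over dose 0 of 46 (background 0.285%). Contrasts of the doses with each other called 0 members as well, with a background of 0.0% for 100 against 30 mg/kg, 0.0185% for 200 against 30 mg/kg and 0.0% for 200 against 100 mg/kg.

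At an unadjusted p of at most 0.05, limma gave 1 member probe set for the low dose (2.38%, against 5.11% of all probe sets), 1 for the middle dose (2.27%, against 5.98%) and 3 for the high dose (6.98%, against 8.74%). All 5 calls were lower than in vehicle rats, a direction that took 2.72%, 2.8% and 4.34% of all probe sets. They were Top2a for the low dose, Ccnd1 on 1371150_at for the middle, and Ccne1 with Ccnd1 on 1371150_at and 1383075_at for the high dose. By gene, with the brightest probe set of each gene standing for it, 32 members could be tested against vehicle. At that unadjusted p, limma gave 1 of the 32 (3.125%) for the low dose, 0 for the middle and 1 for the high. Among all named genes the shares were 5.11%, 6.89% and 10.5%. Of the 32, 15 were above and 17 below vehicle for the low dose, 15 above and 17 below for the middle dose, and 18 above and 14 below for the high dose. The members had a median difference of -0.07, -0.03 and 0.02 in the same order, beside 0.004, 0.013 and 0.006 for all named genes. For 200 against 30 mg/kg the same unadjusted p gave 7 of 42 member probe sets (16.67%, 3 higher and 4 lower), beside 2101 of 26959 on the array. By gene it gave 4 of 33 (12.12%: Myc, Ccne1, Top2a and Tk1), against 8.53% of named genes. The gene shares were 3.03% for 100 against 30 mg/kg (against 5.41%), 5.88% for 200 against 100 mg/kg (6.66%) and 8.82% for the slope (11.2%). In bulk liver RNA, fewer cells of a type and less RNA per cell cannot be told apart.

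How large a change could have gone unseen differed between genes. At 200 mg/kg, the 95% interval of the difference lay within a 2-fold change in either direction for 9 of the 32 genes: Pcna, Aurkb, Cdk4, Ccnb1, Ccnd2, Mcm7, Kif11, Cdc20 and Cdk2. For 22 of the others a 2-fold difference in at least 1 direction lay inside the interval, and the interval of Ccne1 lay wholly beyond 2-fold lower. The half-width of the interval was 0.23 for the most precise gene, Pcna, and 3.94 for the least, with a median of 1.18. At 30 mg/kg the interval lay within 2-fold for 11 of the 32 genes, and at 100 mg/kg for 9.

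**Figure D1:**
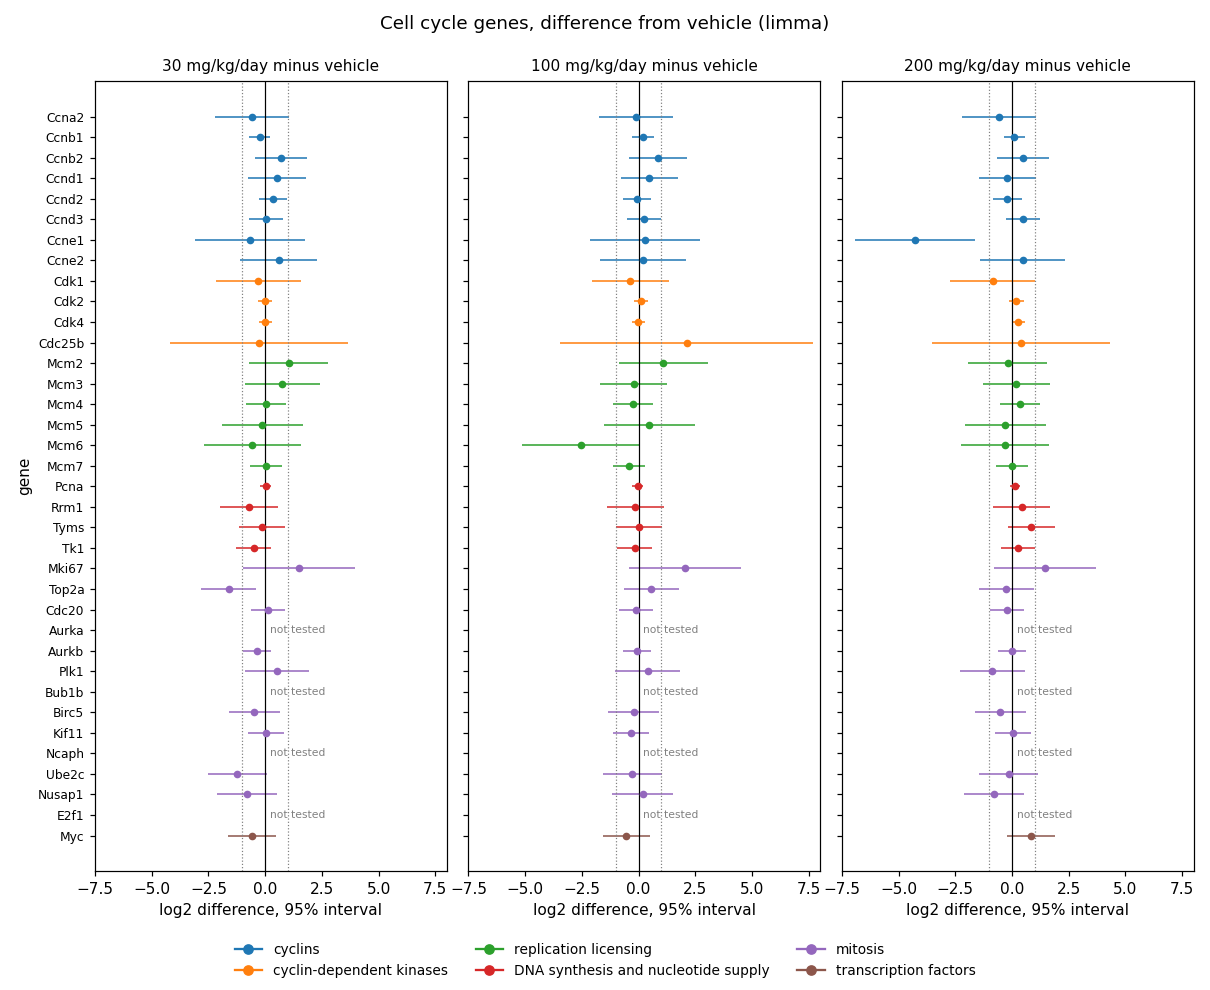
Log2 difference of each gene from vehicle (horizontal axis, points) with its 95% interval from limma (lines) at 30, 100 and 200 mg/kg/day, with 3 rats per group and genes coloured by role. Dotted lines mark 2-fold changes. Of 36 genes, 4 could not be tested against vehicle, and most intervals cross 0.

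Cyclin D1 (Ccnd1), a D-type cyclin that pairs with Cdk4 to carry cells through G1, held the lowest p of the members at 100 and 200 mg/kg on 1 of its 3 probe sets. On 1371150_at it read 7.45, 7.48 and 6.34 in vehicle rats 1 to 3, 6.72, 7.45 and 5.43 at 30 mg/kg, 5.94, 5.02 and 5.78 at 100 mg/kg, with 5.19, 5.27 and 5.85 at 200 mg/kg. All rats at 100 and 200 mg/kg lay below all vehicle rats, while 30 mg/kg overlapped vehicle. The differences from vehicle were -0.55, -1.51 and -1.65 from the low to the high dose (SE 0.45 each), with adjusted p of 0.97, 0.61 and 0.22 by limma. The slope was -0.81 per 100 mg/kg (adjusted p = 0.18).

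A second Ccnd1 probe set, 1383075_at, gave 7.32, 7.2 and 5.80 in vehicle rats, 6.64, 7.14 and 5.62 at 30 mg/kg, 5.93, 5.58 and 6.79 at 100 mg/kg, with 4.82, 4.88 and 5.89 at 200 mg/kg. Its difference at 200 mg/kg was -1.57 (SE 0.47, adjusted p = 0.29 by limma), with rat 3 at 200 mg/kg just above vehicle rat 3. The brightest Ccnd1 probe set, 1371643_at, read 7.62, 7.81 and 4.77 in vehicle rats, 7.57, 7.09 and 7.10 at 30 mg/kg, 7.32, 7.22 and 7.10 at 100 mg/kg, with 6.19, 6.19 and 7.21 at 200 mg/kg. Here the groups overlapped, and the difference at 200 mg/kg was -0.21 (SE 0.59, adjusted p = 0.96). Vehicle rat 3 was the lowest vehicle rat on all 3 probe sets. Without it the difference at 200 mg/kg was -2.03 on 1371150_at, -2.06 on 1383075_at and -1.19 on 1371643_at, with adjusted p of 0.19, 0.17 and 0.18. On 1371643_at, leaving out vehicle rat 1 or 2 in its place turned the difference positive, to 0.24 or 0.33.

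Cyclin D2 (Ccnd2) and cyclin D3 (Ccnd3), which share that role, did not pass the test either. Ccnd2 read 5.56, 5.49 and 5.41 in vehicle rats, 5.95, 6.34 and 5.23 at 30 mg/kg, 4.97, 5.74 and 5.52 at 100 mg/kg, with 5.51, 5.34 and 5.00 at 200 mg/kg. Ccnd3 differed by 0.49 at 200 mg/kg (95% interval -0.27 to 1.24, adjusted p = 0.77), with overlapping groups.

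Of the other cyclins, cyclin E1 (Ccne1), which starts S phase with Cdk2, had the most extreme difference from vehicle of all members, on dim and partly empty values. It was empty, 4.02 and 3.01 in vehicle rats, 1.00, 4.25 and 3.24 at 30 mg/kg, 3.86, 3.45 and 4.12 at 100 mg/kg, with empty, 0.61 and -2.14 at 200 mg/kg. The difference at 200 mg/kg was -4.28 (SE 1.21, adjusted p = 0.27), and with dim and empty values set to the floor it was -0.06. Cyclin E2 (Ccne2) showed no shared direction at 200 mg/kg on its pair of probe sets, at 0.46 and -1.48. On 1374359_at all 3 rats at 30 mg/kg (3.28, 4.00 and 3.04) were above all vehicle rats (0.57, 2.59 and 2.22), by 1.65 on average (adjusted p = 0.97 by limma). Every vehicle value lay below the floor, and so did those of rats 1 and 3 at 30 mg/kg. The mitotic cyclin Ccnb1 was tightly measured on 1370346_at, at 0.10 above vehicle at 200 mg/kg (95% interval -0.37 to 0.57). Its dimmer probe set, 1370345_at, read 3.64, 4.34 and 2.16 in vehicle rats and was empty in every rat at 30 mg/kg. At 200 mg/kg only rat 2 had a value (3.24), which gave a difference of -0.14. Of the 8 cyclin genes, 4 were above and 4 below vehicle at 200 mg/kg.

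Of the kinases, Cdk4 and Cdk2 were precisely measured (SE 0.13 and 0.15), while Cdk1 (SE 0.85) and the phosphatase Cdc25b (SE 1.79) were not. Cdk4, the partner of the D cyclins, read 7.76, 7.71 and 7.61 in vehicle rats, 7.85, 7.43 and 7.80 at 30 mg/kg, 7.46, 7.82 and 7.76 at 100 mg/kg, with 8.10, 7.89 and 7.88 at 200 mg/kg. All 3 rats at 200 mg/kg were above all vehicle rats, by 0.27 or 1.2-fold (SE 0.13, 95% interval -0.02 to 0.55, adjusted p = 0.62 by limma). Cdk2, the kinase of S phase, read on 1394320_at 6.25, 6.31 and 6.09 in vehicle rats, 5.98, 6.37 and 6.26 at 30 mg/kg, 6.41, 6.22 and 6.33 at 100 mg/kg, with 6.46, 6.33 and 6.44 at 200 mg/kg. Its 3 rats at 200 mg/kg were above all vehicle rats, by 0.19 (adjusted p = 0.79). Its second probe set, 1378874_at, differed by 0.02 at 200 mg/kg, and all 3 of its rats at 100 mg/kg lay below all vehicle rats (difference -0.28). Cdk1, the kinase of mitosis, was dim, at -0.85 at 200 mg/kg with 2 empty values over the 12 rats. Cdc25b, a phosphatase that activates these kinases, spread from -1.16 to 4.72 among the vehicle rats alone.

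**Figure D2:**
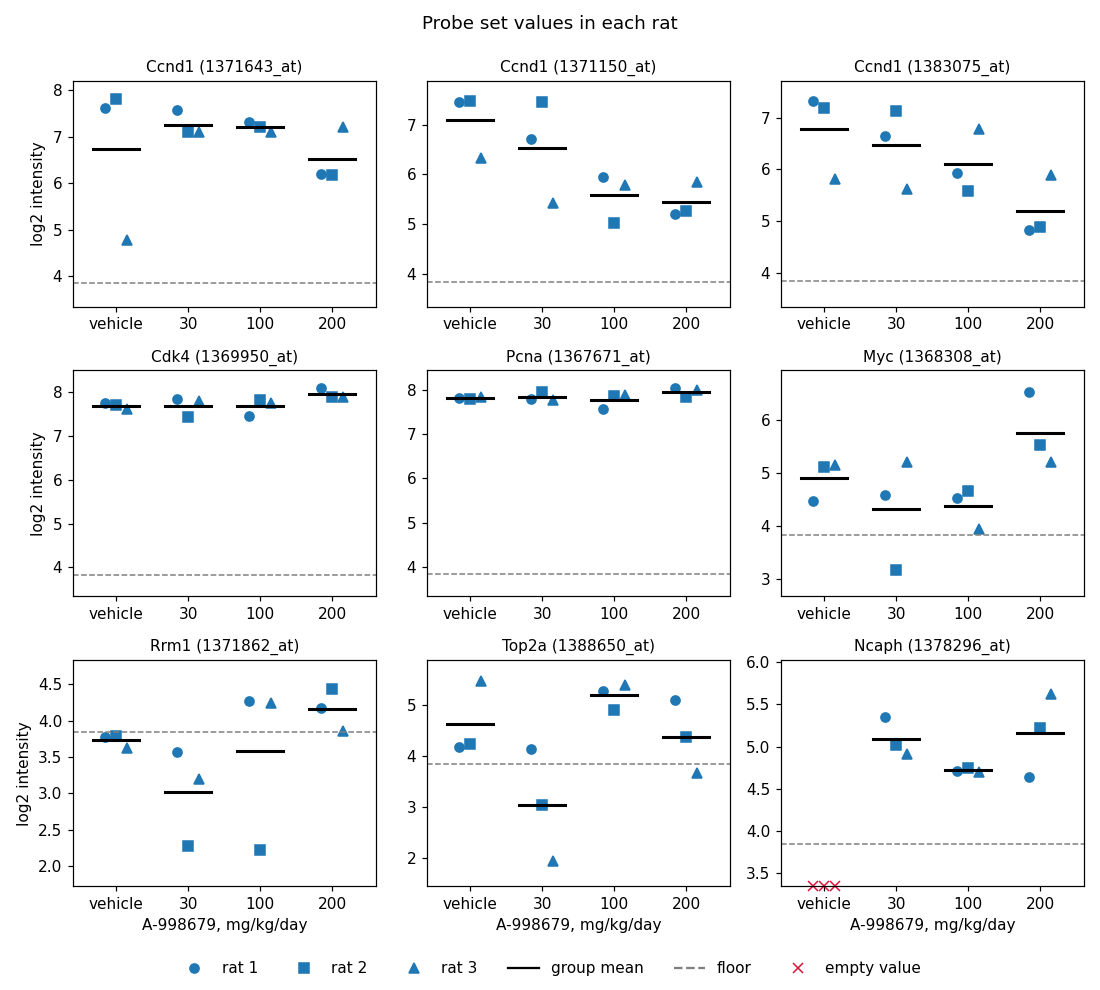
Log2 intensity (vertical axis) of 9 probe sets in each rat by dose of A-998679 (horizontal axis), with the group mean as a black line, the floor of 3.84 as a dashed line and empty values as red crosses at the foot of a panel. Ccnd1 runs lower at 200 mg/kg on 1371150_at and 1383075_at, Pcna and Cdk4 are nearly level, and Ncaph has values only in dosed rats.

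Genes of replication licensing, the Mcm subunits of the helicase that opens DNA, showed no shared direction. Mcm7, the brightest, read 6.13, 6.15 and 5.86 in vehicle rats, 6.19, 5.93 and 6.14 at 30 mg/kg, 6.25, 4.63 and 6.03 at 100 mg/kg, with 6.06, 5.83 and 6.29 at 200 mg/kg. Its difference at 200 mg/kg was 0.01 (95% interval -0.69 to 0.72). Of the 6 Mcm genes measured, 3 were above and 3 below vehicle at 200 mg/kg, and the median was -0.09. Mcm6 read 2.82, empty and 2.93 in vehicle rats, empty, 2.64 and 1.96 at 30 mg/kg, empty, empty and 0.34 at 100 mg/kg, with 2.63, 1.94 and 3.12 at 200 mg/kg, all below the floor. The single value at 100 mg/kg gave a difference of -2.53 (adjusted p = 0.84).

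The genes of DNA synthesis and nucleotide supply were all above vehicle at 200 mg/kg, 4 of 4 measured, by 0.13 to 0.86, with none past the test and the lowest adjusted p at 0.67. At 30 mg/kg 1 of the 4 was above vehicle, and at 100 mg/kg 1. Pcna, the sliding clamp of DNA polymerase, was the most closely replicated member. It read 7.81, 7.80 and 7.84 in vehicle rats, 7.80, 7.94 and 7.77 at 30 mg/kg, 7.57, 7.86 and 7.89 at 100 mg/kg, with 8.03, 7.82 and 7.99 at 200 mg/kg. The differences from low to high dose were 0.02, -0.04 and 0.13 (for the last, 95% interval -0.10 to 0.37, adjusted p = 0.80), so that a change of 2-fold lay outside the interval at each dose.

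Rrm1, the large subunit of ribonucleotide reductase, which makes the deoxynucleotides for replication, read 3.77, 3.78 and 3.63 in vehicle rats, 3.57, 2.28 and 3.20 at 30 mg/kg, 4.27, 2.22 and 4.25 at 100 mg/kg, with 4.18, 4.43 and 3.86 at 200 mg/kg. All rats were below vehicle at 30 mg/kg (-0.71, adjusted p = 0.97) and all above it at 200 mg/kg (0.43, adjusted p = 0.90). The vehicle values all lay just below the floor. Thymidylate synthase (Tyms) read 4.89, 4.65 and 4.16 at 200 mg/kg, against 3.55, 4.22 and 3.37 in vehicle rats, which overlap, with a difference of 0.86 (SE 0.47, adjusted p = 0.67). Thymidine kinase (Tk1) differed by 0.26 on its brighter probe set (adjusted p = 0.90).

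Genes of mitosis gave 3 above and 6 below vehicle at 200 mg/kg, of 9 tested and 12 measured, with a median of -0.21 and none past the test. Mki67, the proliferation antigen Ki-67, was dim, with an empty value in 1 rat of each group other than 200 mg/kg. It read 1.58, 0.79 and empty in vehicle rats, 4.31, empty and 1.05 at 30 mg/kg, 2.95, 3.51 and empty at 100 mg/kg, with 2.22, 2.91 and 2.79 at 200 mg/kg. The differences from vehicle were 1.5, 2.05 and 1.46, with adjusted p of 0.97, 0.88 and 0.76, and 11 of the 12 entries were empty or below the floor. With these set to the floor, no difference was left at 100 mg/kg.

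Topoisomerase II alpha (Top2a), which untangles DNA before division, read on 1388650_at 4.17, 4.24 and 5.47 in vehicle rats, 4.13, 3.02 and 1.94 at 30 mg/kg, 5.28, 4.89 and 5.40 at 100 mg/kg, with 5.10, 4.36 and 3.66 at 200 mg/kg. All rats at 30 mg/kg were below all vehicle rats (difference -1.60, SE 0.56, adjusted p = 0.92), and 100 mg/kg lay above 30 mg/kg by 2.16 (adjusted p = 0.71). With dim values set to the floor the difference at 30 mg/kg was -0.69, and without rat 3 of that dose -1.05. The second Top2a probe set, 1372186_a_at, read empty, 0.75 and -1.44 in vehicle rats, 2.29, 3.40 and empty at 30 mg/kg, 0.10, 2.99 and empty at 100 mg/kg, with 0.14, 0.80 and empty at 200 mg/kg. Its difference at 30 mg/kg had the other sign, 3.19 (adjusted p = 0.97), and was 2.10 without vehicle rat 3, with every value below the floor. The ubiquitin-conjugating enzyme Ube2c read 4.43, 3.99 and 3.87 in vehicle rats, 1.63, 2.92 and 4.04 at 30 mg/kg, 3.93, 4.26 and 3.26 at 100 mg/kg, with 3.94, 3.30 and 4.63 at 200 mg/kg. The difference at 30 mg/kg was -1.23 (adjusted p = 0.97) with overlap, -0.62 without rat 1 of that dose and -0.19 with dim values set to the floor.

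Kif11, the motor that separates the spindle poles, read on its brighter probe set 5.20, 5.70 and 4.30 in vehicle rats, 5.25, 4.92 and 5.15 at 30 mg/kg, 5.18, 4.94 and 4.11 at 100 mg/kg, with 4.84, 5.22 and 5.25 at 200 mg/kg. It differed by 0.03 at 200 mg/kg, and the groups overlapped. Its dimmer probe set, 1385619_at, was empty in all 3 rats at 200 mg/kg. The mitotic kinase Plk1 differed by -0.86 at 200 mg/kg (adjusted p = 0.79), with values of 2.43, 1.88 and 3.63, against 3.54, 2.19 and 4.80 in vehicle rats. The 5 probe sets of Cdc20, an activator of the anaphase-promoting complex, split 2 above and 3 below vehicle at 200 mg/kg.

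Ncaph, a subunit of the condensin complex that packs chromosomes for mitosis, had no value in any vehicle rat and a value in every dosed rat. It was singled out after its values were seen. It read 5.35, 5.02 and 4.91 at 30 mg/kg, 4.71, 4.74 and 4.70 at 100 mg/kg, with 4.64, 5.22 and 5.62 at 200 mg/kg, all above the floor and in no order of dose. Of 29176 probe sets, 2 (0.00685%) had values in all 9 dosed rats and none in vehicle rats, and 3 (0.0103%) the reverse. Of the 4451 probe sets whose mean lay in the range of its dosed rats, 4338 had no empty value and 23 had 3 or more. If the empty values lie at or below the floor, Ncaph was higher than in vehicle rats by at least 2.39-fold for the low, 1.84-fold for the middle and 2.5-fold for the high dose. With the floor in their place, limma gave adjusted p of 0.44, 0.49 and 0.089 for the 3 doses and 0.16 for their mean. These p-values rest on equal vehicle values supplied by the floor, with no spread between vehicle rats. The gene was also picked for this gap, so no conclusion is drawn from them. Without the floor Ncaph cannot be tested against vehicle, and whether an empty value stands for a low signal could not be settled from these files.

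The promoter windows of Ncaph and Pcna are shown because they are the member with the vehicle gap and the member measured most precisely, and both hold the letters GCGTG on 1 strand or the other. They are RefSeq sequences of the rat GRCr8 assembly, 250 bases before to 50 after the start of the gene, read 5′ to 3′ along the gene. Capitals mark GCGTG (the AhR core), CCAAT (the CCAAT box), TTTGAA (the cell cycle homology region) and GCGGGAA (an E2F element), each searched on both strands. Ncaph is on the minus strand at chr3:134852453-134852752, with 1 GCGTG and 1 GCGGGAA, and Pcna on the minus strand at chr3:139955771-139956070, with 2 GCGTG and 1 CCAAT.
Ncaph: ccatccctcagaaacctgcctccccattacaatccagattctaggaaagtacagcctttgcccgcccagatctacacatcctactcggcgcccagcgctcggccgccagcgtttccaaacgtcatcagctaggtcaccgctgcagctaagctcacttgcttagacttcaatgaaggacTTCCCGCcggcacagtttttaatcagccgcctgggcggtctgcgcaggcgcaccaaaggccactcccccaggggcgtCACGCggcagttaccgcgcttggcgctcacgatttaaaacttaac
Pcna: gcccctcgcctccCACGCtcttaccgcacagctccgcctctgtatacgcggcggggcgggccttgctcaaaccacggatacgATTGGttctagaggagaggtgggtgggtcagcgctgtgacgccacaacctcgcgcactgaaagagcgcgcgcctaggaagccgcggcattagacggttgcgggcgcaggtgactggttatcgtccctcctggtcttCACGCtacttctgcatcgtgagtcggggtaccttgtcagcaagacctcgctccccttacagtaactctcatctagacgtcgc

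Windows were found for 27 of the 38 genes. Of these, 13 (48.1%) hold GCGTG, against 29.7% of all 33469 windows, 19 (70.4%) CCAAT, against 37.5%, 10 (37.0%) TTTGAA, against 18.3%, and 6 (22.2%) GCGGGAA, against 4.21%. These are counts of letters and not of bound sites, and the windows of the other genes may differ in base composition. TTTGAA was found for Birc5, Bub1b, Ccnb2, Cdc20, Cdk1, Mcm2, Mki67, Nusap1, Plk1 and Top2a, and GCGGGAA for Cdk2, Mcm3, Mcm5, Mcm7, Ncaph and Rrm1. Windows with GCGTG include those of Pcna, Tyms, Ccne1 and Ccnb1, and that of Ncaph, which could not be tested against vehicle. No member passed the test, with GCGTG in its window or without it, and action of AhR at these windows was not tested.

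Of the transcription factors, E2f1, which drives S-phase genes, had a value in 1 rat of 12. Myc, a mitogen-induced factor that promotes growth and entry into the cycle, lay above all vehicle rats in the 3 rats at 200 mg/kg. It read 4.48, 5.13 and 5.15 in vehicle rats, 4.58, 3.17 and 5.22 at 30 mg/kg, 4.53, 4.66 and 3.95 at 100 mg/kg, with 6.54, 5.53 and 5.21 at 200 mg/kg. The difference from vehicle was 0.84 at 200 mg/kg (1.79-fold, SE 0.49, adjusted p = 0.69), with rat 3 at 200 mg/kg barely above vehicle rat 3. Without rat 1 of that dose it was 0.45. Against the lower doses it was 1.44 (200 against 30 mg/kg, adjusted p = 0.48) and 1.38 (200 against 100 mg/kg, adjusted p = 0.75), with 1 rat at 30 mg/kg above the lowest rat at 200 mg/kg.

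Rats of a group that lie wholly to 1 side of the vehicle rats were no more frequent among members than on the array at 30 and 100 mg/kg, and about as frequent at 200 mg/kg. At 30 mg/kg this held for 3 of 31 member probe sets with values in all rats of both groups (9.68%, against 10.4% of all such probe sets), namely Ccne2 above vehicle (background 5.07%) and Rrm1 and Top2a below it (5.31%). At 100 mg/kg it held for 2 of 28 (7.14%, against 13.1%), Ccnd1 and Cdk2, both below (6.23%) and 0 above (6.91%). At 200 mg/kg it held for 5 of 32 (15.6%, against 15.3%), with Myc, Cdk4, Rrm1 and Cdk2 above (7.97%) and Ccnd1 below (7.3%). No member probe set separated all 9 dosed rats from the vehicle rats, where 1.37% of all probe sets did.

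**Figure D3:**
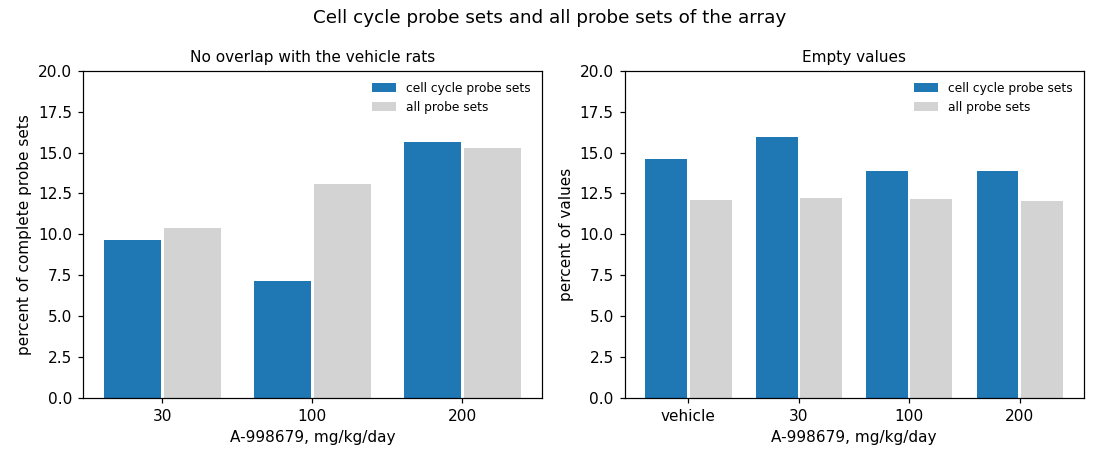
Left, percent of probe sets with values in all rats of both groups (vertical axis) in which no dosed rat overlaps the vehicle rats, by dose, for cell cycle probe sets (blue) and all probe sets (grey). Right, percent of values that are empty, by group. Members at 200 mg/kg stand at 15.6%, beside 15.3% of all probe sets, and their empty values lie between 13.9% and 15.97% in the 4 groups.

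The share of empty values did not follow dose. Of 144 member values in each group, 21 (14.6%) were empty in vehicle rats, 23 (15.97%) for the low dose, 20 (13.9%) for the middle and 20 (13.9%) for the high one, beside 12.1%, 12.2%, 12.2% and 12.0% of all values on the array. Counting values below the floor too, the members stood at 46.5%, 46.5%, 41.7% and 45.1%, and all probe sets at 34.1%, 34.2%, 34.1% and 34.0%. A value was present in all 12 rats for 20 of the 36 genes, and 15 of the 36 had a mean below the floor. Of the genes that could not be tested against vehicle, Aurka, the centrosome kinase, had a value in 1 vehicle rat, Bub1b, a spindle checkpoint kinase, in 3 dosed rats, E2f1 in 1 rat at 100 mg/kg and Ncaph in dosed rats alone.

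**Figure D4:**
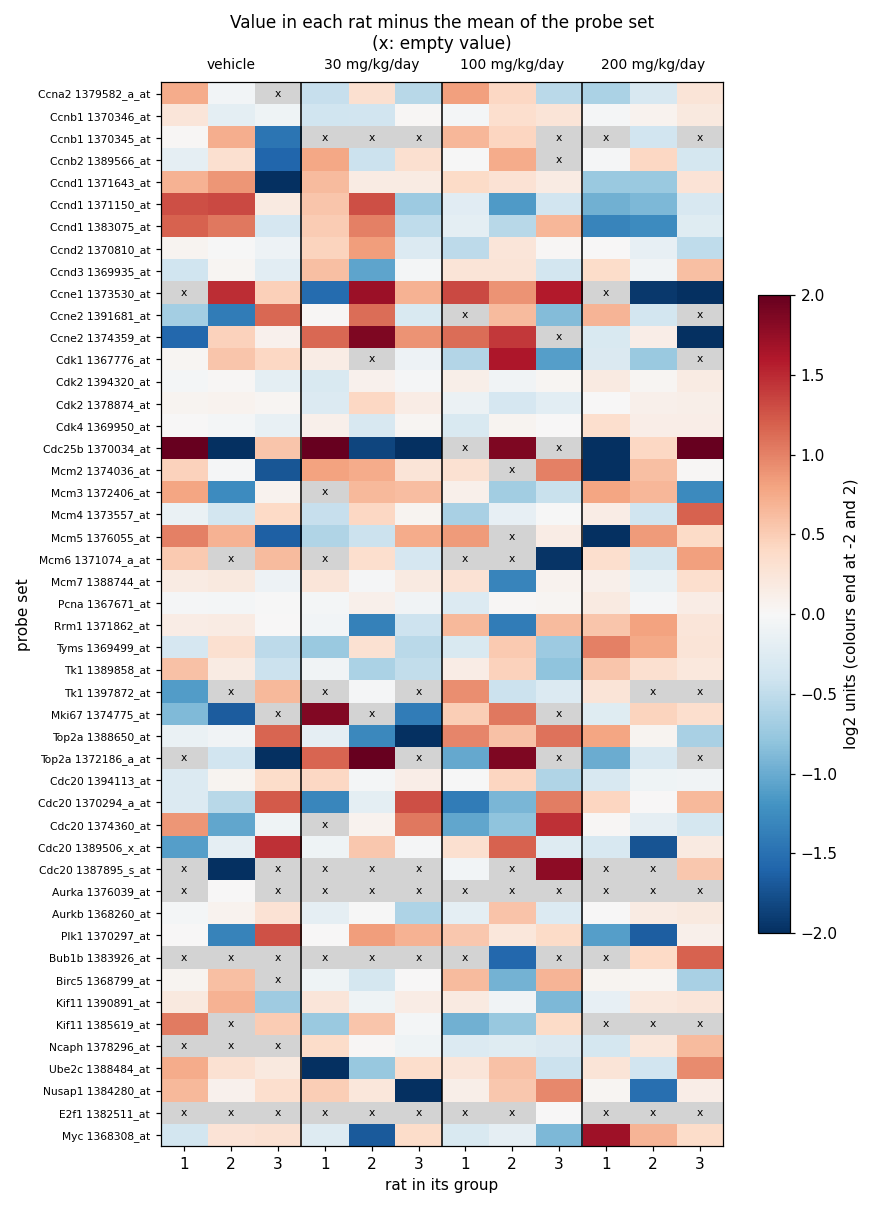
All 48 cell cycle probe sets (rows) in the 12 rats (columns, by group), coloured by the value minus the mean of that probe set in log2 units, with colours ending at 2 in both directions and empty values marked x on grey. Precise genes such as Pcna, Cdk4 and Cdk2 are nearly white, dim ones such as Cdc25b and Ccne1 are strongly coloured, and no block of rows follows a dose.

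Replicate spread set what could be seen. For the 20 members with a value in every rat, the SD within groups ran from 0.11 (Pcna) to 0.91 (Ccnd1, brightest probe set), with a median of 0.49, beside 0.31 for all complete probe sets. At like brightness the members spread less than the array at means of 2 to 4 (0.72 for 4 members, against 0.84) and of 6 to 8 (0.15 for 4 members, against 0.20), and more at means of 4 to 5 (0.60 for 6 members, against 0.50) and of 5 to 6 (0.46 for 6 members, against 0.33).

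The other cell cycle genes, pooled here with 11 hepatocyte growth signals, numbered 98 measured of 116. All were listed by role from textbook knowledge with earlier results of these data known. None passed in any comparison with vehicle. At 200 mg/kg, 49 were above and 42 below vehicle (median 0.05), with 9 of 91 at an unadjusted p of at most 0.05 (9.89%, against 10.5% of all named genes). Prim1, the catalytic primase subunit, read 6.70, 6.48 and 6.44 at 200 mg/kg, against 6.22, 5.60 and 4.96 in vehicle rats, a difference of 0.95 (SE 0.30, adjusted p = 0.32). Dlgap5, a spindle protein, differed by -1.15 (adjusted p = 0.36), Mcm10, a replication initiation factor, by -1.79 (adjusted p = 0.36) and Hells, a chromatin remodeler, by 0.41 (adjusted p = 0.36). Mcm10, on the brighter of its 2 probe sets, read 4.40, empty and 5.42 in vehicle rats. At 200 mg/kg it read 3.85, 2.97 and 2.54, partly below the floor. Ccng1, cyclin G1, a target of p53, was 7.17, 7.14 and 7.01 at 100 mg/kg, against 6.53, 6.28 and 6.15 in vehicle rats, a difference of 0.78 (SE 0.14, adjusted p = 0.15). The Cdk inhibitors, the brakes of the cycle, were 4 above and 2 below vehicle at 200 mg/kg with none past the test.

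The labelled tissue was checked with marker genes. The summed intensity of the 5 hepatocyte markers, Alb, Apoa1, Ttr, Serpina1 and Fgb, was 31100 to 38450 at 200 mg/kg, against 37830 to 40090 in vehicle rats, and all 5 were below vehicle at 200 mg/kg, with a median difference of -0.22 and none past the test. Kupffer cell and macrophage markers (5 of 6 measured) summed to 1632 to 2253 at 200 mg/kg, against 1556 to 2053 in vehicle rats, and endothelial markers (4 of 5) to 1252 to 1557, against 1262 to 1534. All measured Kupffer cell, endothelial and cholangiocyte markers were above vehicle at 200 mg/kg, with median differences of 0.13, 0.14 and 0.64 and none past the test. Cholangiocyte markers (3 of 4) summed to 104.9 to 169.1 at 200 mg/kg, against 109.8 to 113.8 in vehicle rats. Lymphocyte markers (6 of 7) summed to 157 to 240 at 200 mg/kg, against 137 to 217 in vehicle rats. Of these, 4 were above and 2 below vehicle at 200 mg/kg (median difference 0.48). Stellate markers were 2 above and 3 below (-0.01), neutrophil markers 1 above and 1 below (-0.23) and erythroid markers 1 above and 2 below (-0.38). None of them passed the test. The part of these cells in the values of the cell cycle genes was not tested.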

How the data were processed

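Liver RNA of 12 rats was measured on 1 array each, in 4 groups of 3 taken from the sample titles. Intensities on a log10 scale, as exported from Rosetta Resolver, were deposited by the authors. The base of the logarithm was settled from the values, whose highest per array was 3.91 to 4.03. How background was corrected, how arrays were scaled and why 12.1% of values are empty is not given in these sources. A second table with fold changes from the authors' own comparisons was left aside. No column belonged to another series.

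The values were turned into log2 without further normalization, and empty ones were left missing. Probe sets took their gene from the platform annotation, and older symbols were replaced with the help of a RefSeq table (GRCr8). Of 29176, 19691 have 1 symbol (19627 of them in that table), 424 several and 9061 none. The probe set with the highest mean stands for a gene.

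The test was limma 3.58.1 (R 4.3.3), fitted to all probe sets and the 4 groups together, with eBayes using a variance trend and p adjusted by Benjamini-Hochberg to a limit of 0.05. The script was tested on simulated data (20497 probe sets, 200 mg/kg against vehicle): it called 40% of 100 set to a 2-fold change, 74% of 100 set to a 4-fold change and 9 with no change. Rats were randomly assigned and each gave 1 array, so p-values measure the spread between animals.

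Members and lists were chosen with earlier results of these data known. Values in every rat are given for members on 1 side of vehicle at 200 mg/kg, those with the 3 lowest p in a comparison with vehicle and the brightest of each role. Of the other cell cycle genes, up to 4 with the smallest p per comparison are named. Alternatives were quantile and 75th percentile scaling, the floor, complete probe sets alone, other variance models, array weights, fewer groups in the fit, a block for rat number, a threshold of 0.10, a t-test, rank of dose and leaving out each rat. Plots came from matplotlib 3.10.9 under Python 3.11.15.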

Additional observations from a re-analysis of the deposited data

Results flagged for a closer look

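Rrm1 (1371862_at), the large subunit of ribonucleotide reductase, lay on opposite sides of vehicle at 2 doses. At 30 mg/kg every rat was lower than every vehicle rat (difference -0.713), and at 200 mg/kg every rat was higher (difference 0.428). Neither difference passed the limma test (adjusted p = 0.97 and 0.90). The contrast of 200 with 30 mg/kg was 1.14 (SE 0.58, adjusted p = 0.67 by limma). The vehicle values lay below the floor of 3.84. The pattern was picked from the members for its shape.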

How the results depend on the processing

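No member gene rose or fell at the adjusted threshold in any alternative. A t-test of equal variance, unadjusted at 0.05, placed 2 members below and 0 above vehicle at 100 mg/kg. That is 4.88% of member probe sets, against 6.54% of all in both directions and 3.07% below vehicle. At 200 mg/kg it placed 2 above and 2 below (10% of 40, against 8.07%, with 4.21% above and 3.87% below). The study's methods name a t-test under Graphpad Prism, and for the arrays an error model in Rosetta Resolver, which was not repeated here.

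Counts over all probe sets did depend on the settings. At 30 mg/kg (2 in the fit reported) they were 1 with complete probe sets alone, 0 without the variance trend, 1 with only the groups compared, 0 by the adjusted and 1176 by the unadjusted t-test, and 0 with at least 2 values per group, an alternative chosen after seeing the data. At 100 mg/kg (6) they were 2 with complete probe sets, 0 without the trend, 11 with array weights, 0 and 1625 by the adjusted and unadjusted t-test, and 2 with at least 2 values per group. At 200 mg/kg (57) they were 36 with the floor, 3 without the trend, 95 with array weights, 26 with only the groups compared, 1 and 2002 by the t-test, and 106 at a threshold of 0.10. For the mean of the 3 doses (16) they were 8 with the floor, 1 without the trend and 30 at 0.10, and for the slope (81) 51, 11 and 133. The cause was not tested.

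Rat numbers name different animals. Same-numbered rats correlated at -0.074 to 0.076 in their deviations from the group means, so the numbers do not pair them. With the replicate block 0, 2 and 48 probe sets passed for the low, middle and high dose and 4 for the dose mean, no member among them.

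Leaving out each rat in turn gave 0 to 4 calls for the low dose, 1 to 9 for the middle, 26 to 67 for the high, 5 to 19 for the mean and 33 to 77 for the slope. The members' median difference ran from -0.272 (without vehicle rat 3) to -0.0246 for the low dose, from -0.0827 to 0.156 (without rat 3 of that dose, and 0.0669 without its rat 1) for the middle dose, from -0.0493 to 0.203 (without vehicle rat 1) for the high dose and from -0.0942 (without vehicle rat 2, and -0.0856 without rat 3 of the high dose) to 0.0377 for the mean. The sign turned for Ccnd1 on 1371643_at, to -0.503 at 100 mg/kg without vehicle rat 3 (0.48 with all rats, highest 1.016), and to 0.238 and 0.33 at 200 mg/kg without vehicle rat 1 or 2 (-0.21 with all rats, lowest -1.19). Counting values below the floor as empty took the empty member values to 46.5%, 46.5%, 41.7% and 45.1% from vehicle to the high dose. Dim signals limit 15 of the 36 genes, whose mean lay below the floor.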
